A study of Drosophila melanogaster with 110 samples.

Results

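Su(z)12 is a subunit of Polycomb repressive complex 2 (PRC2), and its chromatin association was mapped by ChIP-seq in Kc167 cells, a Drosophila line of embryonic origin that the labels give as hemocyte. The data are 6 lists of Su(z)12 peaks, of 76 lists in the whole series. They come from 3 control cultures that received GFP dsRNA and 3 rump RNAi cultures that received dsRNA against rump, each for 4 days. Rump is the fly homolog of the RNA-binding protein hnRNP M, and the study profiled 13 targets to ask whether Polycomb and insulator proteins associate differently with chromatin after its depletion. All cultures are 1 cell line, and the labels call the replicates biological, without saying whether they were separate cultures, so p-values measure the spread between these libraries. Peak lists hold no expression, so neither the cell type nor the loss of Rump could be checked here. Merging overlapping peaks of the 6 lists (1 bp or more in common) gave 4673 regions. The 206 regions with a peak in all 6 lists are called the core below, and the other 4467 regions are called the long-list regions.

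PRC2 places methyl groups on lysine 27 of histone H3 through its catalytic subunit E(z), and Su(z)12 is needed for that activity. The trimethylated form, H3K27me3, spreads over broad domains of silenced developmental genes, where the PRC1 proteins Pc, Ph and Psc are also found. In flies both complexes are drawn to Polycomb response elements (PREs), short stretches of DNA read by sequence-specific proteins such as Pho, the GAGA factor, Combgap (Cg) and Crooked legs (Crol). Crol and Cg are also found at many active genes, as is the insulator protein CP190.

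The lists differed far more between replicates than between conditions. The control lists held 315, 2855 and 1378 peaks in replicates 1, 2 and 3, and the rump RNAi lists held 368, 886 and 4267. The shortest list of each condition was replicate 1, and the ranges of the 2 conditions overlapped throughout. The mean of log2 peak number was 10.07 ± 1.62 in control and 10.12 ± 1.79 after rump RNAi (SD, n = 3 each), so rump RNAi lists were 0.06 higher (p = 1, exact permutation test, two-sided). With 3 libraries against 3, the smallest p this test can give is 0.1. Without control replicate 1 the difference was -0.83, and without rump RNAi replicate 3 it was -0.91, so its sign rested on single libraries. Read depth is unknown, because the lists give no read numbers.

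**Figure D1:**
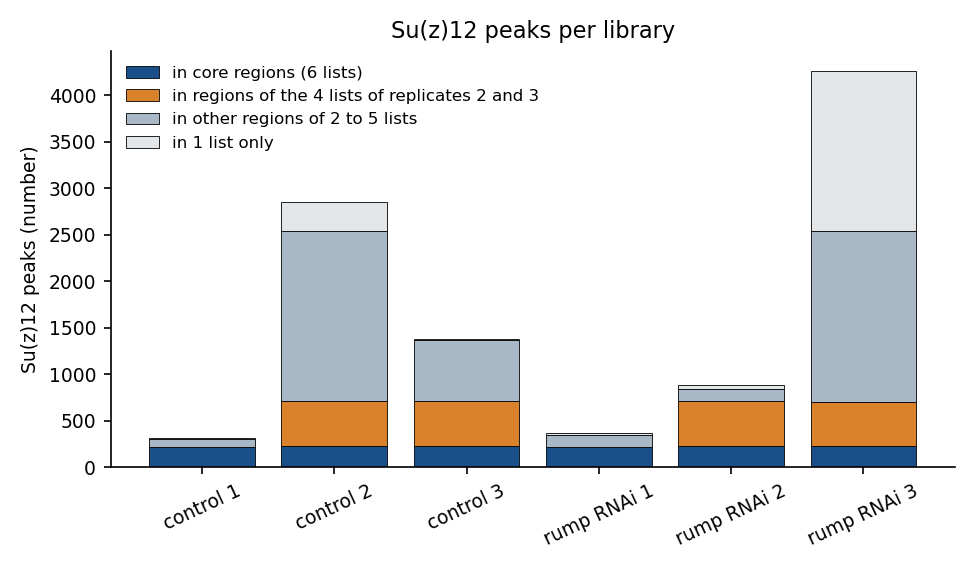
Number of Su(z)12 peaks in each of the 6 libraries, with each bar divided by the kind of region its peaks fall in. The core, defined by a peak in all 6 lists, accounts for 214 to 232 peaks in every library, while the total runs from 315 to 4267 peaks.

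Both replicate 1 lists stood apart from the other 4 lists. They alone held peaks on the mitochondrial genome, 11 in control and 9 in rump RNAi, against 0 in each of the other lists. They overlapped each other with a Jaccard index (shared bp over all bp covered) of 0.640. Control replicate 2 resembled rump RNAi replicate 3 most, at 0.523, and control replicate 3 resembled rump RNAi replicate 2, at 0.474. The mean index was 0.227 within a condition and 0.326 between conditions, a difference of -0.099 (exact one-sided permutation test for higher values within, p = 0.7). By the titles of the input libraries, replicate 1 shares its input with an E(z) and a Psc library, replicate 2 with a Psc library and replicate 3 with a Crol library. The part of the inputs in these differences was not tested.

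The core supplied a near-constant number of peaks to very unequal lists, and so a very unequal share of them. Core regions held 67.9%, 7.92% and 16.8% of the control peaks and 60.9%, 26.2% and 5.27% of the rump RNAi peaks. Fold enrichment, the ratio of ChIP to input signal at the summit that the peak caller writes to column 7, had core medians of 6.02, 9.58 and 6.20 in control and 7.56, 5.47 and 9.31 after rump RNAi. To compare lists of unequal length, each peak was ranked by its percentile of fold enrichment within its own list. The median core percentile was 64.0, 94.7 and 83.3 in control and 69.2, 79.1 and 95.7 after rump RNAi. It was highest in the longest list of each condition and lowest in the shortest, and a core region could still lie near the bottom of a list, with a lowest percentile of 0.175 in control replicate 2. Of the 4673 regions, 2133 had a peak in 1 list, 1204 in 2 lists, 552 in 3, 496 in 4 and 82 in 5. Rump RNAi replicate 3 alone supplied 1725 of the regions with a single list, and control replicate 2 supplied 317. Core regions were also broader, with a median merged width of 934 bp against 367 bp for the long-list regions, although width here grows with the number of lists merged.

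The core carried the marks of Polycomb domains. H3K27me3 overlapped 188 of the 206 core regions (91.3%, 95% Wilson interval 86.6 to 94.4) and 21.5% of the long-list regions. An overlap needed at least 1 bp with a region found in 3 of 6 libraries of a partner, or 2 of 4 for H3K27me3, and H3K27me3 regions covered 7.29% of the chromosome arms. E(z), the catalytic partner of Su(z)12, overlapped 201 core regions (97.6%, interval 94.4 to 99.0) and 101 long-list regions (2.26%). These intervals cover counting error only. Read from the other side, 201 of the 290 E(z) regions (69.3%) overlapped the core and 288 (99.3%) overlapped some Su(z)12 region. Psc was found at 98.1% of core regions, Pc at 88.8%, and both Ph and Pho at 206 of 206. In the long-list regions the same proteins were found at 5.91%, 12.5%, 36.7% and 48.9%. In these shares the core and the long-list regions differed most in E(z) and Psc. The number of partner regions limits these shares, with 290 for E(z) and 410 for Psc, against 2086 for Ph and 4566 for Pho. The E(z) and Psc regions were too few to cover most long-list regions, so this order was not separated from set size.

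Crol and Cg were common both in the core and in the long-list regions. Crol overlapped 94.7% of core regions and 83.0% of long-list regions, and Cg overlapped 95.1% and 37.5%. CP190, which marks insulators and active promoters, overlapped 9.71% of core regions (interval 6.37 to 14.5) and 7.48% of long-list regions, so the long-list share lay inside the interval of the core share. CTCF was found at 9.22% and 2.91%, and Su(Hw) at 24.8% and 14.8%. Regions with Crol, Cg or CP190 but no H3K27me3 made up 8.25% of the core and 67.5% of the long-list regions. When E(z) regions were required in all 6 E(z) libraries, the core share fell to 68.4%.

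**Figure D2:**
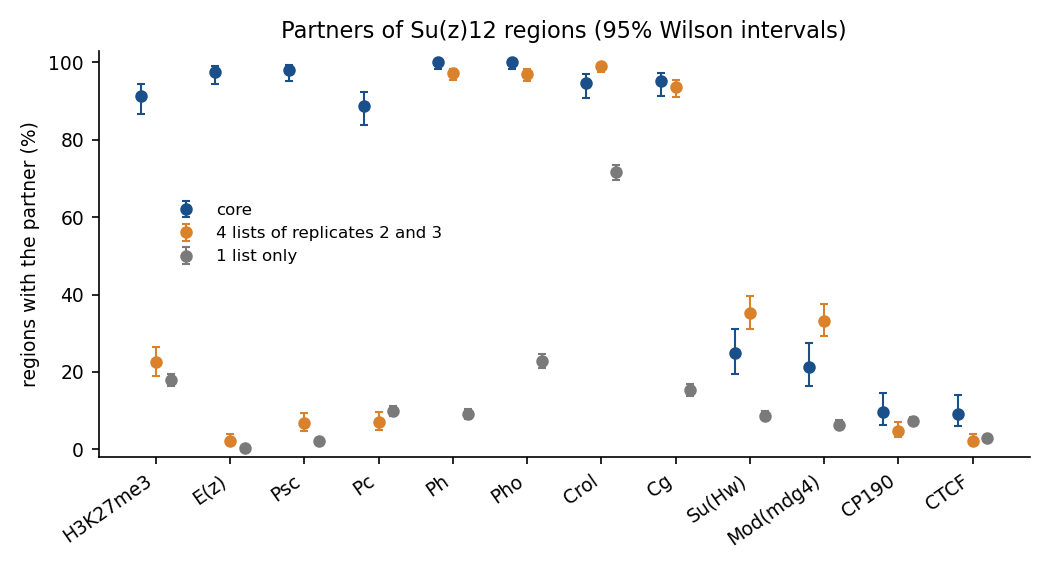
Share of Su(z)12 regions that overlap each of 12 partners, for the core, the regions found in exactly the 4 lists of replicates 2 and 3, and the regions of a single list. Points are percentages and bars are 95% Wilson intervals; E(z), Psc, Pc and H3K27me3 mark the core, whereas Ph, Pho, Crol and Cg are at 93.6% or above in both of these classes with several lists.

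A second reproducible class appeared among the long-list regions. It consisted of 472 regions with a peak in all 4 lists of replicates 2 and 3 and in neither list of replicate 1, and it was singled out after its values were seen. Their median percentiles were 83.0 and 66.9 in control replicates 2 and 3 and 42.1 and 89.5 in rump RNAi replicates 2 and 3, above the middle of the list in 3 of these 4 libraries. Among the 206 strongest regions of each of these libraries, 64 and 82 belonged to this class in control and 68 and 71 after rump RNAi, beside 117 and 98, and 111 and 110, from the core. Ph was found at 97.2% of the 472 regions, Pho at 97.0%, Crol at 98.9% and Cg at 93.6%, and 92.4% had all 4 proteins, close to 91.3% in the core. E(z), however, was found at 2.12%, Psc at 6.78%, Pc at 6.99% and H3K27me3 at 22.5%. Single E(z) lists had a peak at 0.424% to 16.5% of the 472 regions, highest in replicate 1 of each condition. At the core they had one at 78.2% to 97.6%. Su(Hw) and its partner Mod(mdg4) were found at 35.2% and 33.3%, but these shares depended on the library. Single lists had a peak at 17.2% to 53.2% of the 472 regions for Su(Hw). For Mod(mdg4) it was 69.9% and 80.9% in its replicate 1 lists and 7.20% to 25.0% in the others. Su(Hw) peaks at these regions were low in their own lists, with median percentiles of 16.7 to 24.7, as at the core (16.5 to 27.2). Ph and Pho peaks there were weaker than at the core. Median fold enrichment of Ph was 5.26 to 6.97 over its 6 libraries at these regions and 14.5 to 33.5 at the core, and the ranges did not overlap. For Crol the medians were 3.56 to 8.03 and 4.32 to 7.73, with overlap.

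**Figure D3:**
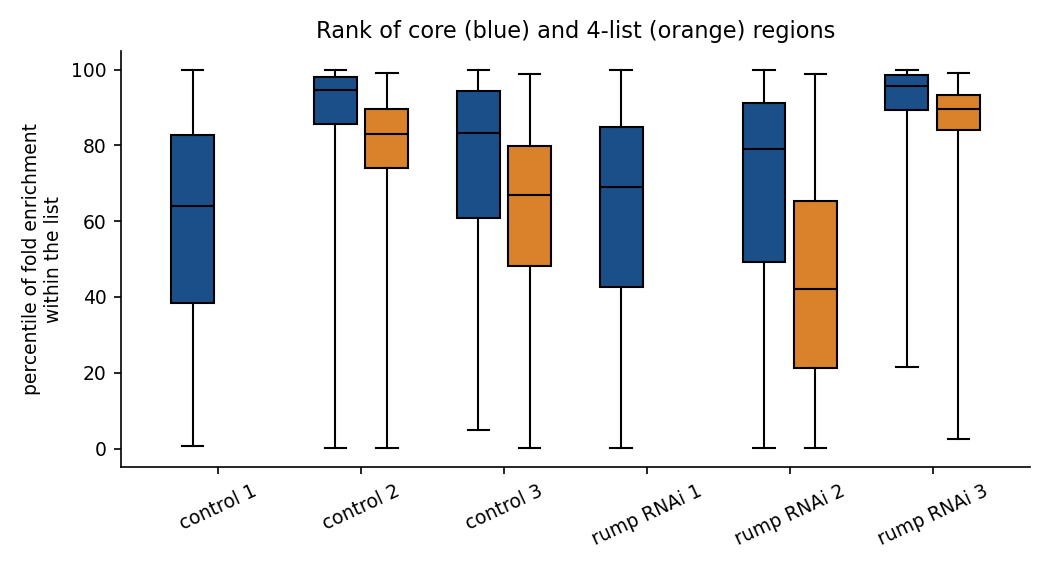
Percentile of fold enrichment within each list for the 206 core regions (blue) and the 472 regions of the 4 lists of replicates 2 and 3 (orange). Boxes show quartiles and medians and whiskers the whole range; the 472 regions have no peak in either replicate 1 list, and their medians run from 42.1 to 89.5 elsewhere.

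The 2 reproducible classes lay in different sequence. Core regions on the chromosome arms overlapped a transcript start in 44.2% of 199 cases and were intergenic in 30.7%. Of the 467 4-list regions on the arms, 88.9% overlapped an exon away from any start, and their summits had a median distance of 15848 bp from the start of the gene they were named after, against 2049 bp in the core. Summits fell in protein-coding sequence in 90.8% of the 4-list regions and 12.1% of the core regions, where coding sequence makes up 17.1% of the arms. The 300 bp around the summit had a median GC content of 66.3% in the 4-list regions, 54.0% in the core and 42.0% over all such windows of the arms. Regions with a peak in 5 lists, just below the core, were mixed, with E(z) at 41.5%, H3K27me3 at 54.9% and coding summits at 57.1%. Of these 82 regions, 35 lacked only control replicate 1 and 23 lacked only rump RNAi replicate 1.

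The coding share differed between libraries of the same condition, for Su(z)12 and for other targets. In control, 17.3%, 69.1% and 72.9% of the peak summits on the arms lay in coding sequence, and after rump RNAi 16.9%, 63.7% and 68.1%. Replicate 1 was low and replicates 2 and 3 were high in both conditions. Median GC around these summits was 53.3%, 62.3% and 64.3% in control and 53.0%, 64.0% and 61.3% after rump RNAi. Lists of other targets differed in other orders. The share was 5.61% to 29.7% over the 6 E(z) libraries, highest in replicate 1 of each condition, 7.32% to 47.2% for Psc and 54.9% to 73.5% for Ph. Psc control replicate 3 shares its input title with Su(z)12 replicate 2. It had a peak at 51.3% of the 472 regions, against 13.1% and 5.08% in the other Psc control lists. The same Psc replicate after rump RNAi had one at 11.9%, against 2.12% and 1.48%. Crol control replicate 1, which shares its input title with Su(z)12 replicate 3, had the lowest coding share of the Crol lists. It had a peak at 96.0% of the 472 regions, against 98.7% and 98.1% in the other Crol control lists. Cg rump RNAi replicate 2 had 44.3% coding summits, against 15.1% to 20.3% in the other Cg libraries. Whether GC content or shared inputs account for the coding peaks was not tested.

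**Figure D4:**
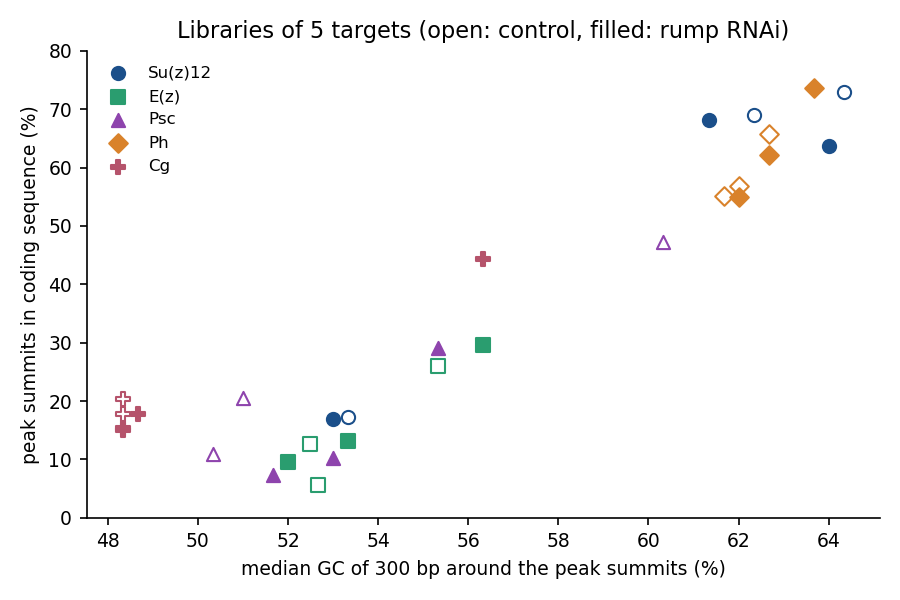
Share of peak summits in protein-coding sequence against median GC content of the 300 bp around the summits, 1 point per library for 5 targets (open control, filled rump RNAi). Su(z)12 replicate 1 of both conditions lies at 53.0% and 53.3% GC with 16.9% and 17.3% coding summits, and the other 4 Su(z)12 libraries lie at 61.3% GC and 63.7% coding or higher.

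The strongest windows of the 2 classes show this difference in base composition directly. Shown are the 200 bp around the summits of 3 of the strongest core regions and 2 of the strongest 4-list regions without H3K27me3, all outside annotated UTRs, on the plus strand of release 6 of the genome (dm6, RefSeq). They are at X:8805827-8806026 (Lim1), 3R:16764070-16764269 (bithorax complex between Ubx and abd-A), 3R:7000880-7001079 (upstream of Antp), 3R:22277710-22277909 (coding exon of SKIP) and 3L:10581890-10582089 (coding exon of Rbfox1). Capitals mark GAGAG, the sequence read by the GAGA factor, and GCCAT, the core of the Pho motif, on either strand (CTCTC and ATGGC).
Lim1, core: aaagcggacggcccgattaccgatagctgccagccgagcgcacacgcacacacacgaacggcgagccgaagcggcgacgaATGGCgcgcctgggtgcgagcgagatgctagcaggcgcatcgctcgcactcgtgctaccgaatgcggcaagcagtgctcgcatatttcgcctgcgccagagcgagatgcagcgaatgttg
bithorax, core: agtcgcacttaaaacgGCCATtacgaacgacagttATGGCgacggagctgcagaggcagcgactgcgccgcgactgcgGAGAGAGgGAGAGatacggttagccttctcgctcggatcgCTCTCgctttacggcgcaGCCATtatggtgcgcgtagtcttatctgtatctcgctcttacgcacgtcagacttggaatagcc
Antp, core: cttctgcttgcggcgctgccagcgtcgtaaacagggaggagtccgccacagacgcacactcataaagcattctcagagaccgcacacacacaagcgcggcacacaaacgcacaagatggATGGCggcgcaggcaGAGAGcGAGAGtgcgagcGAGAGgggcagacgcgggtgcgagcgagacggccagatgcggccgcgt
SKIP, long lists: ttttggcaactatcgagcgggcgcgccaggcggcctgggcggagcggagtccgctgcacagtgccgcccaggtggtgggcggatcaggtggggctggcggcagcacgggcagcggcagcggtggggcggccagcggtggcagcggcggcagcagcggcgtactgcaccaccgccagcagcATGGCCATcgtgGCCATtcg
Rbfox1, long lists: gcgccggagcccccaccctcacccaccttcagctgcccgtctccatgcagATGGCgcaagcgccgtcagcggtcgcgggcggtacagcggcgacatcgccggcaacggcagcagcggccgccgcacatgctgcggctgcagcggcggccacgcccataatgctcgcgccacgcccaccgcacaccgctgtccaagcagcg
The GC content of these windows is 64.0%, 56.5% and 64.0% in the core and 74.0% and 73.5% in the 4-list regions.

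GAGAG set the classes apart more than GCCAT did. Within 300 bp around the summit, GAGAG occurred in 75.9% of the 199 core regions on the arms, 26.98% of the 467 4-list regions, 35.3% of all Su(z)12 regions and 30.2% of all windows of that length on the arms. GCCAT occurred in 71.9%, 56.7%, 58.9% and 47.6% of them. GTGTG, the repeat bound by Cg, occurred in 67.8%, 37.3%, 43.7% and 42.1%. The mean number of GAGAG matches was 2.98 per core window and 0.403 per 4-list window, with overlapping matches counted. The bithorax window above holds 4 matches to GAGAG and 3 to GCCAT, and the Antp window holds 3 and 1. The SKIP window holds 0 and 3. Single windows need not follow the classes: the Lim1 core window holds 0 and 1, the same as the Rbfox1 window. A match describes the letters of the window and is not evidence of binding.

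The strongest core regions lay at Lim1, in the bithorax complex and at Antp, Vsx1, rib and Prat2, among others. By rule they are the 10 regions whose lowest percentile over the 6 lists is highest. Lim1, which encodes a LIM-homeodomain factor, had 2 of them on the X chromosome. The first, at its start (8804860-8807805), had fold enrichments of 19.6, 22.2 and 16.2 in control and 20.9, 14.3 and 24.2 after rump RNAi. The second lay 47575 bp from that start, in an exon. Lim1 was thus at or above percentile 98.4 in every list at both sites, and the conditions overlapped.
The bithorax complex, which holds the Hox genes Ubx, abd-A and Abd-B, had 3 of the 10. The region at 16763306-16764861 on 3R, nearest to the start of CG31275, had fold enrichments of 17.8, 23.8 and 12.9 in control and 23.1, 17.8 and 20.2 after rump RNAi, and it was the strongest peak of 3 lists. Introns of Ubx and Abd-B held the other bithorax sites. The Hox gene Antp had a site 1752 bp from its start, with 17.1, 18.4 and 13.5 in control and 19.9, 11.1 and 22.8 after rump RNAi. Others lay at the start of Vsx1, a homeobox gene, at the start of rib, which encodes a BTB-domain regulator, and 10649 bp from Prat2, a gene for an enzyme of purine synthesis. All 10 overlapped H3K27me3, E(z), Psc and Ph.

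Within the core, stronger sites were broader and more often at starts. The 68 regions of the upper of 3 parts, by mean normalized fold enrichment, had a median width of 1303 bp, H3K27me3 at 100% and a start at 58.8%. The 69 regions of the lower part had 697 bp, 79.7% and 32.8%. Crol was found at 98.5% of the upper part and 87.0% of the lower part, Cg at 100% and 89.9%, and CP190 at 8.82% and 13.0%. Strength at Su(z)12 and strength at E(z) ordered the sites alike, with a Spearman rho of 0.889 over 201 regions. The values for Psc, Ph, Pho, Crol and Cg were 0.661, 0.663, 0.477, 0.435 and 0.328 over 195 to 206 regions. These are descriptions across sites of 1 genome, which share libraries, mapping and base composition. For the length of the H3K27me3 domain rho was 0.190 over 188 regions.

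H3K27me3 domains with a core region were longer than those without one. Of 332 domains on the arms, 97 held 1 or more core regions, and these 97 made up 65.2% of the domain length. Their median length was 47.1 kb, against 10.7 kb for the 235 domains without one. A longer domain has more room for a core region, and this comparison does not take length into account. The bithorax domain (327 kb) held 12 core regions, the domain of the Antennapedia complex (401 kb) held 11, and the domain of hth, which encodes a Hox cofactor, held 6 in 207 kb. The domains of the JAK/STAT ligands upd1, upd2 and upd3 and of the zinc-finger gene opa held 5 each. Those of the Iroquois genes ara, caup and mirr and of the Polycomb genes Psc and Su(z)2 held 4 each. Of 185 core summits inside a domain, 10 (5.41%) lay within 2 kb of an edge, close to the 6.10% of the length of the 97 domains that lies there, and the median distance was 18.5 kb. A short domain of 6.76 kb at Snap25 on 3L also held 4 core regions.

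Most core regions without H3K27me3 still had E(z). There were 18 of them, 12 on the arms and 6 elsewhere. E(z) was found at 15 (83.3%), Psc at 14, Pc at 3, and Ph and Pho at all 18. The start of ptc, the Hedgehog receptor gene, had fold enrichments of 3.64, 6.39 and 4.90 in control and 3.50, 3.14 and 4.77 after rump RNAi. The start of CG1628 had 5.65, 9.68 and 5.82, and 7.56, 6.24 and 12.1. Exons of Rim, mamo, fru and msn were also in this group, and of these Rim and mamo lacked E(z). Rim and mamo were weak in both replicate 1 lists, at percentile 41.3 or lower, and at percentile 81.5 or higher in the other 4. Other regions of this group had the opposite order. A site nearest to CG41520, which had E(z), was at percentiles 74.3 and 73.6 in the replicate 1 lists and 3.05 to 54.2 in the other 4. The third region without E(z), nearest to Marf1, was low in most lists, at 3.50 to 26.3 in 5 of them and 49.7 in rump RNAi replicate 3. In all, 7 core regions lay off the arms, 2 on the ribosomal DNA and 5 on unplaced scaffolds.

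The strongest long-list regions lay in exons, 5186 to 143980 bp from the start of the gene. The rule took the 10 regions with a peak in 2 to 5 lists and no H3K27me3 whose lowest percentile was highest, and all 10 turned out to be 4-list regions. The region in SKIP (3R:22277563-22278062) had fold enrichments of 11.1 and 9.74 in control replicates 2 and 3 and 8.53 and 14.8 in rump RNAi replicates 2 and 3, and no peak in replicate 1. Rbfox1, which encodes a splicing regulator, held 2 of the 10, with 10.6 and 11.8, and 9.78 and 12.3, at 3L:10581741-10582228. The others were in rsh, CG42342, trv, CG15465, Syn (Synapsin, a synaptic vesicle protein), and Rim and Rbp, which encode scaffold proteins of the presynaptic active zone. All 10 overlapped Ph, and 0 overlapped E(z) or Psc. This is near the shares of the whole class under the same filter. Among the 366 4-list regions without H3K27me3, Ph was found at 96.4%, E(z) at 0.546% and Psc at 1.37%.

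Core regions were found at most of the listed Polycomb target and Hox genes and at few genes of the other lists. The lists were chosen with results of these data known. A core region overlapped the gene or the 2 kb upstream of it for 126 of 13945 protein-coding genes (0.904%), for 53 of 86 listed Polycomb targets (61.6%) and for 7 of 8 Hox genes. The Hox gene without one was pb. Of the listed targets, 81 (94.2%) had some Su(z)12 region, against 20.1% of all genes, and ind, sna, wor, sob and toy had none. Among 24 genes of Polycomb group proteins, Psc, Su(z)2 and jing had a core region. Among 17 genes of hemocyte function only lz, which encodes a Runx factor of crystal cells, had one. Of 17 ecdysone response genes 0 had a core region and 5 had a 4-list region, Eip74EF, ImpE1, Blimp-1, br and Hr4, against 399 of all 13945 genes (2.86%) with a 4-list region and no core region. Of 92 ribosomal protein genes 0 had either. A 4-list region was not particular to the ecdysone list. Of the 86 listed Polycomb targets, 7 (8.14%) had one and no core region, and others had both, among them Antp, Abd-B, dac and salm. Gene length was not taken into account, and a longer gene has more room for a region.

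Single loci showed how few sites of a domain were shared by all lists. Within 10 kb around Ubx to Abd-B there were 54 Su(z)12 regions, 12 of them core. The core region at the start of abd-A had fold enrichments of 11.8, 19.6 and 8.90 in control and 18.6, 7.88 and 13.9 after rump RNAi. The Antp locus held 20 regions with 5 core, en and inv 9 with 3, Psc and Su(z)2 14 with 4, and wg 6 with 1. At wg, which encodes a Wnt ligand, the start had 9.38, 18.0 and 9.28 in control and 13.3, 8.80 and 19.1 after rump RNAi. The core region over the start of eve, a pair-rule gene next to TER94, had 7.92, 16.6 and 9.06 in control and 9.47, 6.18 and 13.3 after rump RNAi. In each of these 3 regions the conditions overlapped, with the highest control value in replicate 2 and the lowest rump RNAi value in replicate 2. These values are not normalized, and the core medians of the lists, 9.58 and 5.47, were highest and lowest in the same 2 libraries. After quantile normalization the lowest rump RNAi value was in replicate 3 at abd-A, 1 at wg and 2 at eve. At ph-p and at hh, 0 of 2 regions each were core.

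No core region passed the test for a change after rump RNAi. Log2 fold enrichment was quantile normalized over the 206 core regions and fitted with limma, with Benjamini-Hochberg adjustment over all 206. At an adjusted p under 0.05, 0 regions (0%) were called, the lowest adjusted p was 0.996, and 3 regions had an unadjusted p under 0.05. Differences ran from -0.47 to 0.41 with a median of 0.00 and a median standard error of 0.21, and 181 of the 206 were smaller than 0.25 in size. Among regions merged over all 6 lists, 736 had a peak in all 4 lists of replicates 2 and 3, and when these were fitted on those 4 lists, 0 were called as well and 7 had an unadjusted p under 0.05. Fold enrichments at summits carry less information than read counts over regions, so these data cannot show that occupancy did not change.

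**Figure D5:**
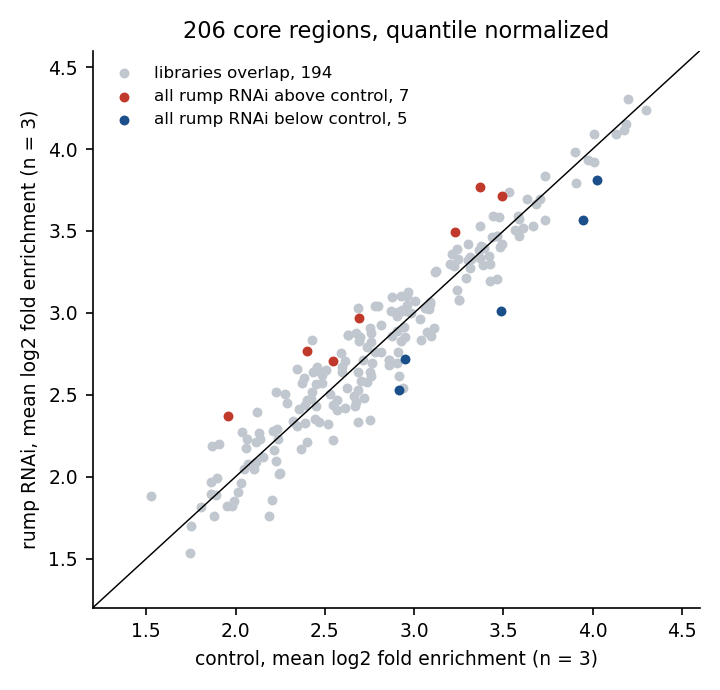
Mean quantile-normalized log2 fold enrichment of each of the 206 core regions in control (x axis) and rump RNAi (y axis), 3 libraries each, with the line of equal values. Colours mark the 7 regions whose rump RNAi libraries all lay above control and the 5 whose libraries all lay below.

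A few core regions had libraries that did not overlap between conditions. All 3 rump RNAi values lay above all control values in 7 of 206 regions (3.4%) and below them in 5 (2.43%). With 3 libraries against 3, chance alone separates the conditions, in 1 direction or the other, at a rate of 0.1. Separation by itself therefore does not mark a change. As the named rule asks, the largest of each are given. At mid, a T-box gene, normalized log2 fold enrichment was 3.39, 3.54 and 3.53 in control and 3.25, 2.86 and 2.93 after rump RNAi, a difference of -0.47 ± 0.17 (SE). It was the lowest value of the 206. The others below were sens-2 (-0.39), a bithorax site between abd-A and Abd-B (3R:16846932-16847902, -0.38), gsb (-0.23) and the site near Prat2 (-0.21). Above were a site at CG6106 within the upd domain (0.41), lbe, a ladybird homeobox gene (0.40), salm, a spalt zinc-finger gene (0.36), ana (0.28) and Caf1-180 (0.26). Single libraries set the size of some of these. Without rump RNAi replicate 1 the value at ana was 0.11, and without rump RNAi replicate 2 the values at Caf1-180 and the bithorax site were 0.17 and -0.24. With median centring the site at CG6106 was at 0.25. At salm the values were 2.51, 2.38 and 2.32 in control and 2.74, 2.85 and 2.71 after rump RNAi. For all of them the adjusted p was 0.996 in limma.

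Gains and losses of whole peaks were rare. A peak in all 3 rump RNAi lists and no control list was found at 2 of 4673 regions (0.0428%), and the reverse at 0 (0%). One gained region lay in the bithorax complex between abd-A and Abd-B (3R:16857576-16858230), with fold enrichments of 7.56, 5.11 and 3.48 and with E(z), Psc and Ph regions. The other lay on 3L (27008118-27008636), 75630 bp from the nearest start of a protein-coding gene, with 4.53, 5.34 and 2.94 and none of the 3 proteins. With each list limited to the length of the shortest, 0 regions were gained and 1 was lost. In 7 of the 4673 regions (0.150%) all 3 control lists and only rump RNAi replicate 3 had a peak. Among them were sites at the homeobox genes tup, Optix and ara, at bab1 and at opa. All 7 were near the bottom of at least 1 control list, with lowest percentiles of 3.49 to 16.5. Rump RNAi replicate 3 is the longest list. The reverse, 1 control list and all rump RNAi lists, was seen at 1 region (0.0214%), on an unplaced scaffold.

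The make-up of the lists did not differ detectably between conditions. H3K27me3 overlapped 81.3%, 30.6% and 36.7% of the control peaks and 74.5%, 41.5% and 25.3% of the rump RNAi peaks, highest in replicate 1 of each. The means were 49.5% ± 27.7 and 47.1% ± 25.0 (SD, n = 3 each), a difference of -2.41 percentage points (p = 0.8, exact permutation test, two-sided). Without control replicate 1 the difference was 13.5 points. Peaks with Crol, Cg or CP190 and no H3K27me3 made up 46.8% ± 29.4 and 44.7% ± 24.6, a difference of -2.03 points (n = 3 each, p = 0.9, same exact test). Without rump RNAi replicate 1 it was 11.5 points.

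Su(z)12 was set beside its partners by list length. E(z) lists held 399, 214 and 328 peaks in control and 547, 256 and 312 after rump RNAi, a log2 difference of 0.21, which overlapped between conditions. The change of Su(z)12 was smaller by 0.16 (-0.16, p = 0.915, exact permutation of conditions within each target, two-sided). Psc lists held 881, 723 and 845 peaks in control and 322, 398 and 372 after rump RNAi, and every rump RNAi list was shorter than every control list, which on the log2 scale is -1.17 (p = 0.1 by exact permutation, the lowest it can give). The change of Su(z)12 was higher by 1.22, but this difference did not pass the test (p = 0.405, exact permutation within targets).

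Crol regions called only after rump RNAi held Su(z)12 peaks mainly in the longest lists. There were 980 Crol regions with a peak in all 3 rump RNAi lists and in no control list. A Su(z)12 peak overlapped 28.8% of these in rump RNAi replicate 3 and 9.69% in control replicate 2, the 2 longest lists, and at most 1.22% in each of the other 4. At the 4999 Crol regions found in all 6 Crol lists the shares in those 2 lists were higher, 38.2% and 33.8%, and they were 4.12% to 21.1% in the other 4. Of the core, 0 regions overlapped the 980 Crol regions called only after rump RNAi, whereas 84.5% overlapped the 4999. At the 191 Crol regions called in all control lists and in none after rump RNAi, at most 3 had a Su(z)12 peak in any list. Every rump RNAi Crol list had a higher share of coding summits than every control Crol list, as given above. The part of that difference in these overlaps was not tested.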

How the data were processed

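Per the labels and the study's methods, the authors trimmed reads with Trim Galore 0.6.7, aligned them to the dm6 genome with Bowtie2 2.5.3, sorted and filtered them with SAMtools (the submitters' processing notes and the methods give different versions), removed duplicates with Picard, and called peaks with MACS2 2.2.7.1 for each library against its input. The deposited lists give for each peak a display score, the fold enrichment over input at the summit (its mean over the broad peak for Pc and H3K27me3), and the −log10 of a p-value and of a q-value. Fold enrichment is a ratio to local background that depends on input and depth, so conditions were tested only after quantile normalization, and lists were compared by within-list percentiles. The authors' count-based test needs reads and was not run here.

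Peaks sharing at least 1 bp were merged over the 6 lists, and the highest fold enrichment per region and list was kept. Regions are named after the protein-coding gene they overlap, or that with the nearest start (Ensembl annotation of the dm6 assembly). Peak ends lay within the arm lengths of that assembly on all 6 arms. Sequence windows were taken outside arm 2R and annotated UTRs. Core regions were tested with limma 3.58.1 in R 4.3.3 on log2 fold enrichment, list properties with exact permutation tests over libraries, and the functions were tested on simulated data. Named are the 10 core regions and the 10 regions of 2 to 5 lists without H3K27me3 with the highest lowest percentile, up to 5 gained and 5 lost regions, limma calls or, with none, the 5 largest non-overlapping differences per direction, and fixed loci and gene lists. One of the named regions is not reported here. Regions without H3K27me3, the 4-list class and regions with 3 control and 1 rump RNAi peaks were added after their values were seen. The members and lists were chosen with earlier results of these data known. Alternatives were a −log10 q of at least 10, lists of equal length, 100 bp of shared sequence, other normalizations, the replicate block and leaving out libraries.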

Additional observations from a re-analysis of the deposited data

How the results depend on the processing

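Only peak lists were used, so a site absent from a list may lie below its calling threshold, and list length limits every overlap. The number of core regions was 99 with lists of equal length and 744 when only the 4 lists of replicates 2 and 3 were merged, an alternative chosen after seeing the data. It was 207 to 248 when 1 library was left out. Gained regions numbered 0 and lost regions 1 with lists of equal length, and they ran from 2 to 14 and from 0 to 7 when 1 library was left out. The log2 difference in peak number ran from -0.91 to 0.86 when 1 library was left out, and was -0.029 on the 4 lists of replicates 2 and 3. Leaving out control replicate 1 gave -0.83 and leaving out rump RNAi replicate 3 gave -0.91. The difference between Su(z)12 and E(z) ran from -1.13 to 0.64, with 0.55 and 0.02 without control replicates 2 and 3, and 0.64 and 0.01 without rump RNAi replicates 1 and 2. The difference in the H3K27me3 share ran from -16.1 to 13.5 points, with 13.5 without control replicate 1, and 0.373 and 8.47 without rump RNAi replicates 2 and 3. The difference in the share with Crol, Cg or CP190 and no H3K27me3 ran from -18.9 to 11.5 points, with 7.82 and 5.00 without control replicates 2 and 3, and 11.5 without rump RNAi replicate 1. With 3 libraries against 3, or fewer, the tests of peak number and of the shares cannot reach 0.05.

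With partner regions required in all their libraries, core shares were 68.4% for E(z), 84.5% for Crol and 87.4% for Cg. Long-list shares were then 18.1% for H3K27me3, 0.582% for E(z), 49.0% for Crol, 23.8% for Cg and 6.60% for CP190. With summits inside the partner region, CP190 was at 6.31% of core and 6.09% of long-list regions. With a −log10 q of at least 10, Crol and Cg were at 84.5% and 40.4% of long-list regions, and on the arms alone, an alternative also chosen after seeing the data, Crol was at 84.1%. When 1 library was left out, core shares ran from 84.3% to 91.5% for H3K27me3 and from 87.5% to 97.6% for E(z), and long-list shares from 21.3% to 24.8% for H3K27me3, 1.97% to 3.62% for E(z), 83.0% to 89.1% for Crol and 36.9% to 53.1% for Cg. The lowest core shares came without control replicate 1, and the highest long-list shares without rump RNAi replicate 3. The cause was not tested.

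The labels do not say that equal replicate numbers mark a shared batch, although the peak names carry equal numbers in both conditions too, and both replicate 1 lists resembled each other. Deviations of same-numbered libraries from the condition means over the core correlated at 0.730, 0.086 and 0.254 for replicates 1, 2 and 3, so the numbers were not taken as pairs, and control replicate 2 correlated best with rump RNAi replicate 3 (0.521). With the replicate block, limma called 0 core regions, and the sign-flip test over the pairs, whose smallest p is 0.25, gave p = 1 for peak number (0.06), p = 0.75 for the H3K27me3 share (-2.41 points) and p = 1 for the other share (-2.03 points). limma also called 0 regions with median centring, without normalization, on percentiles, on the arms and without any 1 library, with 0 to 4 unadjusted p-values under 0.05, and the 10 named differences kept their sign in all 12 alternatives, with the changes in size given above.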

Other observations

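The 4 core regions in the 6.76 kb domain at Snap25 correspond to 59.2 per 100 kb, against 3.67 in the bithorax domain and 2.75 in the domain of the Antennapedia complex. The Snap25 regions lie side by side, at 3L:24169183-24170592, 24170659-24171986, 24173067-24173601 and 24174056-24175873. Whether they are separate sites or 1 block of enrichment called as several peaks was not tested. Over the arms, 3R had the most core regions for its length, 2.00 per Mb, and chromosome 4 held 1 core region. The other arms had 1.03 to 1.57 per Mb. The 472 regions found only in replicates 2 and 3 included 120 on X, 123 on 3R and 0 on chromosome 4. They fell to 380 named genes, 58 of which had more than 1 region.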
